A study of Mus musculus with 4 samples.

Results

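The enzymes of isocitrate, malate and aconitate metabolism were examined as 9 genes, listed by name with earlier results of these data known: Idh1, Aco1, Mdh1 and Me1, whose products work in the cytosol, and Idh2, Idh3a, Idh3b, Idh3g and Mdh2, whose products work in mitochondria. All 9 were found among the 21090 genes of the table, and all 9 passed the filter on low values (mean of at least 1 RPKM, that is, reads divided by gene length in kilobases and by the library's total), which left 10871 genes for testing. RNA-seq had been run on 4 lines of mouse mammary tumor cells with 1 library each. The 2 controls were a parental line and a vector control line, and the 2 S100a4 knockouts had been made with a lentivirus for Cas9 and a guide RNA against exon 3 or exon 2 (1 library for each guide) of S100a4, which encodes a calcium-binding protein of the S100 family. By the study's account all lines go back to the primary tumor of a Pik3caH1047R;Trp53R270H;MMTV-Cre mouse on C57BL/6 that also had lung metastasis, so both groups share the Pik3ca and Trp53 mutations, which Cre under the MMTV promoter, active mainly in mammary epithelium, had switched on. Infected cells were selected on puromycin, and no cloning step is described. In the sample titles the exon 2 knockout is a derivative of cells 308 and the other 3 libraries are of cells 307, although the methods speak of 1 starting line. Each group of 2 holds single libraries of different lines, so the p-values measure only the spread between these libraries.

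Isocitrate dehydrogenases turn isocitrate into 2-oxoglutarate. Idh1 in the cytosol and Idh2 in mitochondria form NADPH, the reducing power for lipid synthesis and antioxidant defence, whereas the NAD-dependent enzyme of the citric acid cycle is built from the catalytic Idh3a and the Idh3b and Idh3g subunits. Aconitases convert citrate and isocitrate into each other, and the cytosolic Aco1 doubles as iron regulatory protein 1 when it lacks its iron-sulfur cluster. Malate dehydrogenases (Mdh1, Mdh2) pass reducing power between cytosol and mitochondria in the malate-aspartate shuttle, and malic enzyme 1 (Me1) forms pyruvate and NADPH from malate. In tumors these genes are best known for mutant isocitrate dehydrogenases that make 2-hydroxyglutarate, which RPKM values do not show.

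In the GENCODE M21 annotation of GRCm38, Idh1 lies on the minus strand of chr1:65158616-65186500 and Me1 on the minus strand of chr9:86581371-86695953. Idh2 lies on the minus strand of chr7:80094846-80115392 and Mdh2 on the plus strand of chr5:135778480-135790398. Aco1 lies on chr4:40143081-40198338 and Idh3a on chr9:54586334-54604661, both on the plus strand, and on the minus strand are Mdh1 (chr11:21556787-21572367), Idh3b (chr2:130279309-130284547) and Idh3g (chrX:73778963-73786897). Idh1, Me1, Idh2 and Mdh2 had the largest log2 changes between groups. The upstream sequences of these 4 genes are shown because Idh1 and Me1 were lower and Idh2 and Mdh2 higher in the knockouts. Each runs 5′ to 3′ on the gene's strand, from 250 bases before the RefSeq start (GRCm38.p6) down to the most upstream start in GENCODE. Capitals mark whole matches, on either strand, to CCAAT (the CCAAT box), GGGCGG (the GC box), CCGGAAG (an ETS core), CTCGCGAG or TGACNNNGC (the core of the antioxidant response element).
Idh1, chr1:65186501-65186729, minus strand: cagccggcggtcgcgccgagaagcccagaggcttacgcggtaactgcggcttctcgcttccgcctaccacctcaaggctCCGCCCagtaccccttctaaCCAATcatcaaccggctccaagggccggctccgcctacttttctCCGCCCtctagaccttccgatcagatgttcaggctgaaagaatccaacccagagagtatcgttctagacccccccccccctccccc
Me1, chr9:86695954-86696164, minus strand: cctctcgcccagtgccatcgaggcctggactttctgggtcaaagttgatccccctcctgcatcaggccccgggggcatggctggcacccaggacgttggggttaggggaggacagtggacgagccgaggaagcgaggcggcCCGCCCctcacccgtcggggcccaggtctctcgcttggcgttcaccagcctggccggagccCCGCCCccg
Idh2, chr7:80115393-80115600, minus strand: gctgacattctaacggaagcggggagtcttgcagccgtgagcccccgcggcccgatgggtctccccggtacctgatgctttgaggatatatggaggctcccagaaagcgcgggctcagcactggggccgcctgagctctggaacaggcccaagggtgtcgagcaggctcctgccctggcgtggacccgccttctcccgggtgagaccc
Mdh2, chr5:135778399-135778479, plus strand: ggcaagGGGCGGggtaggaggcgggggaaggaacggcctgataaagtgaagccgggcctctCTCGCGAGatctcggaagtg
Over the whole 250 bases before the RefSeq start, Idh1 held 1 CCAAT and 2 GC boxes, Me1 held 3 GC boxes, and Idh2 held 1 CCAAT and 2 GC boxes, none of which lies whole within the stretch shown. Mdh2 held 1 GC box and 3 CTCGCGAG elements, at 189, 62 and 28 bases before the start. Among 32851 RefSeq windows of the same length, 33.8% held CCAAT, 32.7% the GC box, 6.91% CCGGAAG, 0.761% CTCGCGAG and 10.2% TGACNNNGC. The GC box was thus found upstream of lower and higher genes alike. TGACNNNGC had 0 matches in the windows of Idh1 and Me1 and 2 in that of Idh3g. These matches are letters in a window and say nothing of binding. RefSeq windows were matched for 8 of the 9 genes, all but Idh3a.

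The malate dehydrogenases were the most abundant of the 9 genes and malic enzyme the least. In RPKM, which is scaled per coding length, the means over the 2 controls were 417 for Mdh2, 399 for Mdh1, 156 for Idh3b, 108 for Idh3g, 105 for Idh1, 94.9 for Idh2, 85.9 for Idh3a, 26.4 for Aco1 and 16.0 for Me1. The control ranges of Mdh1 and Mdh2 overlapped, as did those of Idh3g, Idh1 and Idh2, so the order within these sets was not larger than the spread between the 2 controls. In the knockouts the means were 677 for Mdh2, 374 for Mdh1, 169.9 for Idh3b, 150.3 for Idh2, 141 for Idh3g, 75.7 for Idh3a, 41.2 for Idh1, 21.8 for Aco1 and 9.32 for Me1. Idh1 thus stood in the middle of the order in the controls and below every mitochondrial gene of the set in the knockouts, where the ranges of Mdh1 and Mdh2 no longer overlapped. The gene length behind the RPKM equalled an annotated coding length for 7 of the 9 genes. For Idh2 (1391 bases) and Idh3b (1230 bases) it did not, so their rank among other genes is less sure than their differences between libraries.

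**Figure D1:**
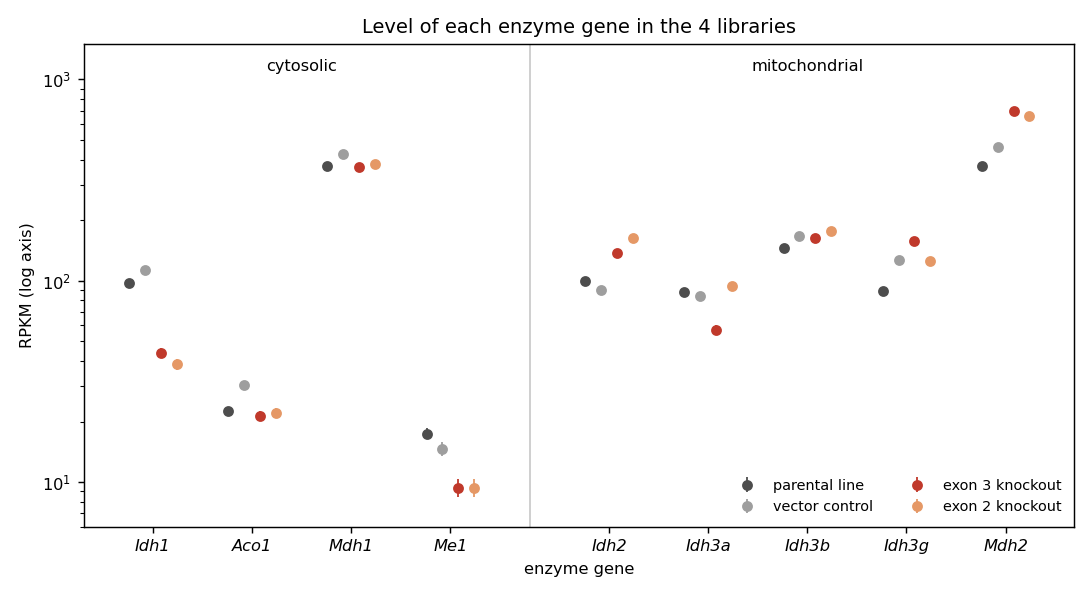
RPKM (log axis) of the 9 enzyme genes in the parental line, the vector control, the exon 3 knockout and the exon 2 knockout, 1 point per library, with bars for the 95% counting interval. Idh1 sits at 97.6 and 113 in the controls and at 43.9 and 38.4 in the knockouts, whereas Mdh2 sits at 371 and 463 in the controls and at 695 and 659.9 in the knockouts.

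S100a4, the edited gene, had 3576 RPKM in parental cells, 4741 in vector control cells, 1136 with the exon 3 guide and 1105 with the exon 2 guide, with a knockout mean at 26.9% of the control mean (limma adjusted p = 0.0731). Small insertions and deletions need not lower an RNA, so this level checks the labels only in part. The study itself reports evidence for truncating mutations in most S100a4 transcripts of the knockout lines, and loss of the protein by Western blot. Between 14498249 and 20250102 whole reads in genes were recovered per library from the RPKM ratios. The defining mesenchymal markers were present (7 of 7 at 1 RPKM or more, summed level 2437 to 4558 RPKM in controls and 2155 to 2351 in knockouts), while the epithelial markers Epcam, Cdh1, Krt5 and Krt14 were under 1 RPKM throughout and the luminal keratins Krt8 and Krt18 between 6.10 and 78.9 RPKM. The parental library stood apart, with Col1a1 at 670.3 RPKM against 6.93 to 54.3 in the other libraries.

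Idh1, the cytosolic NADPH-forming isocitrate dehydrogenase, was the gene of the set that differed most. It had 97.6 RPKM in parental cells (3796 reads, 95% Clopper-Pearson interval 94.5 to 100.8), 113 in vector control cells (109 to 117), 43.9 with the exon 3 guide (41.5 to 46.4) and 38.4 with the exon 2 guide (1075 reads, 36.2 to 40.8). These intervals cover counting error only. Both knockouts were low, both controls were high, and the groups did not overlap. The mean was 105 ± 10.9 RPKM (SD, n = 2) in the controls and 41.2 ± 3.87 in the knockouts, or 39.1% of the control mean. On the log2(RPKM + 1) scale, which understates changes of low genes, the difference was -1.33 (SE 0.295) with a limma adjusted p of 0.101, so Idh1 missed the threshold of 0.05. It was lower in 4 of 4 knockout and control pairs, by between -1.53 and -1.14, whereas the vector control lay 0.21 above the parental line and the exon 2 knockout 0.19 below the exon 3 knockout as plain log2 ratios. By its log2 change Idh1 took place 282 from the bottom of the 10871 tested genes. Fewer cells that express a gene and less RNA per cell cannot be told apart in such bulk libraries. The study names Idh1 among the genes with lower expression in these same libraries, so its direction here is not independent evidence.

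Idh1 passed the threshold under 3 of 13 alternatives. With a robust prior its adjusted p was 0.0215, where 2.23% of tested genes were called lower. Without the vector control it was 0.0240, where 3.08% were called lower, and without the parental line 0.0035, where 5.06% were called lower. In the last 2 fits the single control is taken to vary as the knockouts do. Over all 13 alternatives, in limma throughout, its log2 change ran from -1.44 to -0.87 and its adjusted p from 0.0035 to 0.409.

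Me1, the cytosolic malic enzyme and a source of NADPH, was also lower. It had 17.4 RPKM in parental cells, 14.6 in vector control cells, 9.32 with the exon 3 guide and 9.33 with the exon 2 guide. Both knockouts lay below both controls and were close to each other, with a plain log2 ratio of 0.00089 and a 95% counting interval from -0.21 to 0.21. The knockout mean was 58.2% of the control mean, and the log2 change was -0.72 (SE 0.316) with an unadjusted limma p of 0.0438 and an adjusted p of 0.250. An antisense gene, A330041J22Rik, overlaps coding exons of Me1, and whether the counting used strand is not stated, so reads of the pair may not be told apart.

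Aco1, the cytosolic aconitase and iron regulatory protein 1, differed little. It had 22.6 RPKM in parental cells, 30.3 in vector control cells, 21.4 with the exon 3 guide and 22.1 with the exon 2 guide. The vector control was high, and the parental line lay within the counting error of both knockouts, as the interval of the log2 ratio to it ran from -0.18 to 0.03 for exon 3 and from -0.13 to 0.07 for exon 2. The log2 change of -0.25 (SE 0.312, limma adjusted p = 0.678) was smaller than the plain log2 ratio of 0.43 between the 2 controls.

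Mdh1, the cytosolic malate dehydrogenase, had 369.8 RPKM in parental cells, 429 in vector control cells, 369 with the exon 3 guide and 379.5 with the exon 2 guide. The exon 2 knockout lay between the controls, so the groups overlapped. The log2 change was -0.09 (SE 0.290, limma adjusted p = 0.889).

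Mdh2, the mitochondrial malate dehydrogenase of the citric acid cycle, was higher in both knockouts. It had 371 RPKM in parental cells, 463 in vector control cells, 695 with the exon 3 guide and 659.9 with the exon 2 guide. The lower knockout stood at 1.43 times the higher control, and the groups did not overlap. The means were 417 ± 64.9 RPKM in the controls and 677 ± 24.5 in the knockouts (SD, n = 2), with a log2 change of 0.71 (SE 0.296), an unadjusted limma p of 0.0358 and an adjusted p of 0.234.

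Idh2, the mitochondrial partner of Idh1, was higher as well. It had 99.9 RPKM in parental cells, 90.0 in vector control cells, 137 with the exon 3 guide and 163 with the exon 2 guide. All 4 knockout and control pairs were positive, with log2 differences between 0.46 and 0.85, and the knockout mean was 158% of the control mean. The log2 change was 0.65 (SE 0.293) with an unadjusted limma p of 0.0464 and an adjusted p of 0.253.

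The 3 subunits of the NAD-dependent isocitrate dehydrogenase had changes of differing sign, but the groups overlapped in each. After correction for GC content and length all 3 were positive (0.058 for Idh3a, 0.12 for Idh3b, 0.42 for Idh3g), so no difference in direction between them is shown. Idh3a, the catalytic subunit, had 88.1 RPKM in parental cells, 83.7 in vector control cells, 57.0 with the exon 3 guide and 94.4 with the exon 2 guide. The exon 3 knockout was low, and the exon 2 knockout lay only slightly above both controls. Its plain log2 ratio to the parental line was 0.10, with a 95% counting interval from 0.02 to 0.18. The change of -0.22 (SE 0.325, limma adjusted p = 0.728) thus averages knockout values that disagree. Idh3b had 145 RPKM in parental cells, 167 in vector control cells, 164 with the exon 3 guide and 176 with the exon 2 guide, with a log2 change of 0.12 (SE 0.290, limma adjusted p = 0.839). Idh3g had 89.3 RPKM in parental cells, 127 in vector control cells, 157 with the exon 3 guide and 125 with the exon 2 guide, with a log2 change of 0.40 (SE 0.312, limma adjusted p = 0.501). In Idh3b and Idh3g the vector control lay among the knockouts, and the parental line was the lowest library.

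**Figure D2:**
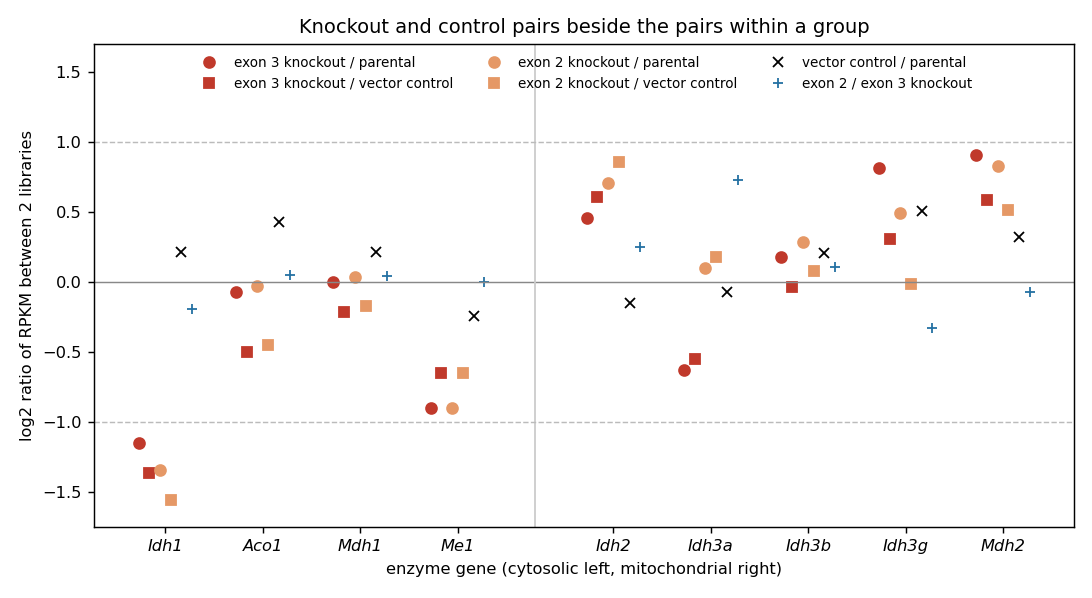
Log2 ratios of RPKM between 2 libraries for each enzyme gene: circles and squares are the 4 knockout and control pairs, crosses the vector control over the parental line, and plus signs the exon 2 over the exon 3 knockout. The dashed lines mark 2-fold. All 4 pairs of Idh1 lie beyond the lower line, while for Idh3b and Idh3g some pairs are no larger than the cross.

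With limma's adjusted p, 0 of the 9 genes passed, against 0.0184% of all tested genes. At an unadjusted p under 0.05, Idh1 and Me1 were lower and Idh2 and Mdh2 higher, against 13.8% of all tested genes lower and 5.32% higher. In 3 genes (Idh1, Aco1, Me1) the knockouts lay wholly below the controls (for Aco1 by a margin within counting error), against 31.2% of all tested genes, and in 2 (Idh2, Mdh2) wholly above, against 21.9%. Idh1 was the 1 gene at least 2-fold lower in all 4 pairs, as were 1.73% of tested genes, and 0 were 2-fold higher, against 0.267%. An exact two-sided permutation test of 2 against 2 libraries cannot give a p below 0.33. Over the 13 alternatives the log2 change ran from -0.83 to -0.38 for Me1, from 0.50 to 0.78 for Idh2 and from 0.46 to 0.86 for Mdh2, and each stayed above the threshold of the adjusted p.

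The cytosolic and mitochondrial genes were also summarized apart, with no test of the difference between them. The log2 changes of the 4 cytosolic genes were all negative, with a median of -0.49 (-0.18 after the correction for GC content and length), although Mdh1 turned slightly positive with median ratio scaling (0.0043), with that correction (0.11) and without the vector control (0.017), and Aco1 with the correction (0.015). Of the 5 mitochondrial genes, 4 had positive changes and Idh3a a negative one, with a median of 0.40, although Idh3b was at -0.076 after quantile normalization and the median was 0.15 without the parental line and 0.58 without the vector control. The median over all tested genes was -0.08, with 5974 of 10871 negative, and the groups overlapped for Mdh1, Idh3a, Idh3b and Idh3g. The cytosolic genes held 39.0% of the summed RPKM of the 9 genes in parental cells and 38.6% in vector control cells, but 26.8% with the exon 3 guide and 26.9% with the exon 2 guide. The controls differed by far less than the groups, and the largest differences in mean RPKM between the groups were those of Mdh2 and Idh1. These shares were not corrected for coding GC, which was 55.5% for Mdh2 and 46.3% for Idh1.

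Ratios within a library do not depend on its scaling. The log2 ratio of Idh1 to Idh2 was -0.03 in parental cells, 0.33 in vector control cells, -1.64 with the exon 3 guide and -2.09 with the exon 2 guide. Idh1 made up 49.4% and 55.7% of the summed RPKM of the pair in parental and vector control cells, 24.2% with the exon 3 guide and 19.0% with the exon 2 guide. These shares rest on the unmatched length of Idh2, whereas differences in the log2 ratio between libraries do not. The mean difference in the log2 ratio was -2.01, against gaps of 0.36 between the controls and 0.44 between the knockouts. The ratio of Mdh1 to Mdh2 was -0.01 and -0.11 in parental and vector control cells in that order, and -0.91 and -0.80 with the exon 3 and exon 2 guides, a difference of -0.80. In both of these cytosolic and mitochondrial pairs the groups lay apart by more than either gap within a group. For Idh1 and Idh2 separate groups had to follow, as Idh1 was lower and Idh2 higher in both knockouts. The ratios thus restate the results of the single genes. How often other pairs of genes lie apart was not counted. These ratios were not corrected for coding GC, with which log2 changes went over all tested genes. It was lower in the cytosolic gene of each pair (Idh1 46.3%, Idh2 56.1%, Mdh1 49.5%, Mdh2 55.5%). After correction for GC content and length the log2 changes were -0.87 for Idh1, 0.55 for Idh2, 0.11 for Mdh1 and 0.57 for Mdh2. The difference was smaller for Me1 than for Idh1, and the log2 ratio of Me1 to Idh1 was -2.49 and -2.95 in the controls and -2.24 and -2.04 in the knockouts.

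**Figure D3:**
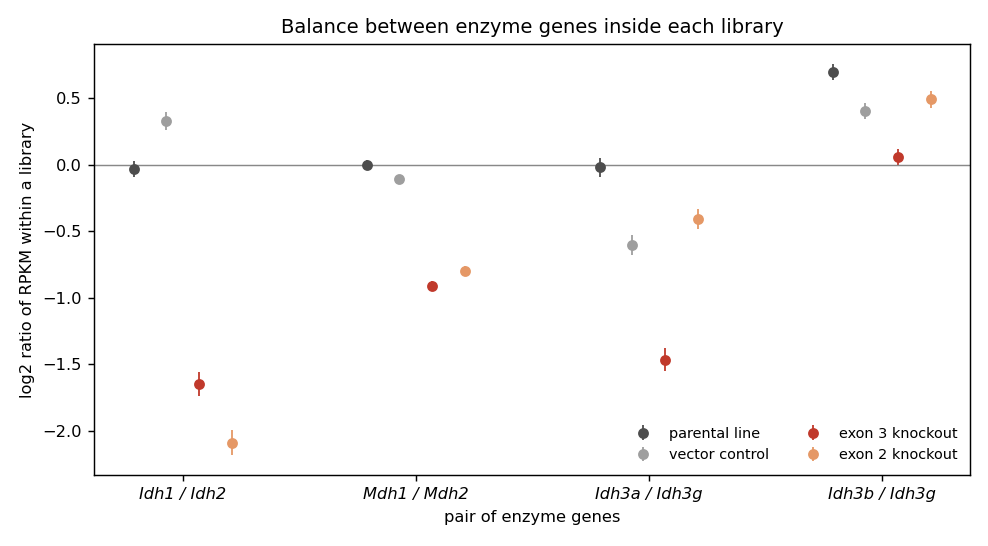
Log2 ratio of RPKM between 2 enzyme genes within each library, with 95% counting intervals. The first 2 pairs set a cytosolic gene over its mitochondrial counterpart and lie lower in both knockouts than in both controls, and the last 2 pairs, of Idh3 subunits, overlap between groups.

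Among the Idh3 subunits the exon 3 knockout stood apart. The log2 ratio of Idh3a to Idh3g was -0.02 in parental cells, -0.60 in vector control cells, -1.46 with the exon 3 guide and -0.41 with the exon 2 guide. That of Idh3b to Idh3g was 0.70, 0.40, 0.06 and 0.49 in the same order. The exon 3 knockout had the lowest value of both ratios, but the exon 2 knockout lay between the controls, so no difference between groups was seen.

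The differences went with base composition. Over 10752 tested genes with a coding sequence, the log2 change correlated with coding GC content (Pearson r = 0.459 across genes, which are not independent replicates and share the 4 libraries), and the median change ran from -0.57 in the quartile of genes with the lowest GC to 0.23 in the quartile with the highest. Idh1 had the lowest coding GC of the 9 genes, at 46.3%, followed by Idh3a (48.6%), Me1 (48.8%), Mdh1 (49.5%), Aco1 (51.3%), Idh3g (52.6%), Idh3b (53.2%), Mdh2 (55.5%) and Idh2 (56.1%). The genes that were higher were thus the 2 richest in GC. After each library was corrected for coding GC content and length, the log2 change was -0.87 for Idh1 (limma adjusted p = 0.306), -0.38 for Me1, 0.57 for Mdh2 and 0.55 for Idh2. Idh1 was then no longer 2-fold lower in all 4 pairs. The corrected values of the other genes were 0.015 for Aco1, 0.11 for Mdh1, 0.058 for Idh3a, 0.12 for Idh3b and 0.42 for Idh3g.

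Markers of other cell types were read beside these genes. Of the leukocyte markers, 1 of 4 (Cd68) reached 1 RPKM, and the summed level was 3.37 to 4.92 RPKM in controls and 11.5 to 13.2 in knockouts, with Cd3e and Adgre1 listed at 0 in all 4 libraries. Of the adipocyte markers, which matter since fat cells are rich in Idh1 and Me1, 1 of 3 (Fabp4) reached 1 RPKM, at 90.9 in the parental line and 2.68 to 5.61 in the other libraries, while Adipoq and Plin1 were listed at 0 throughout. Between parental and vector control cells, Idh1 was at 97.6 and 113 RPKM and Me1 at 17.4 and 14.6. Summed epithelial markers (2 of 6 at 1 RPKM or more) spanned 34.3 to 129.8 RPKM in controls and 74.8 to 107 in knockouts, and both endothelial markers stayed under 1 RPKM. Their part in the results was not tested.

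The genes whose pattern was most like that of Idh1, by the Euclidean distance between centred log2(RPKM + 1) values over the 4 libraries, were Cpeb4 (distance 0.0788), Trak2 (0.0876), Magi3 (0.0931), Chd9 (0.126) and Kat2b (0.128). Trak2, the most abundant of them, had 20.0 and 22.9 RPKM in parental and vector control cells and 8.54 and 7.94 with the exon 3 and exon 2 guides. Of the other enzymes Me1 came nearest to Idh1, at 0.705, yet 979 other tested genes were nearer. Idh2 was nearest to Mdh2 (0.404, with 848 genes nearer), and Mdh2 and Idh3g were nearest to each other (0.380). Aco1 and Mdh1 were also nearest to each other (0.217), and Mdh1 was the nearest of the set to Idh3a and Idh3b. Me1 was nearest to Aco1 (0.648).

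The other genes of the citric acid cycle had changes in both directions. Of 13 tested genes 0 passed the adjusted test in limma, and the median log2 change was 0.13. At an unadjusted limma p under 0.05, 1 was lower and 0 higher, against 13.8% and 5.32% of all tested genes. The knockouts lay wholly below the controls in 4 and wholly above in 2, against 31.2% and 21.9% of all tested genes. Dld, the shared dehydrogenase subunit of the 2-oxoglutarate and pyruvate complexes, was at the lower end, with 77.8 RPKM in parental cells, 111 in vector control cells, 36.3 with the exon 3 guide and 55.7 with the exon 2 guide (log2 change -1.03, SE 0.33, limma adjusted p = 0.162). The lowest value of Dld thus fell in the exon 3 knockout, as for Idh3a and some other genes of the list. Unlike for Idh3a, the exon 2 knockout also lay below both controls. Coding GC of Dld was 42.8%, and its change after the correction for GC content and length was -0.39. Of 6 pyruvate entry genes 0 passed and 0 had an unadjusted limma p under 0.05, against 13.8% of all tested genes lower and 5.32% higher. Changes ran from -0.15 (Pdha1) to 0.55 (Mpc1). Mpc1 lay near the filter, with 0.68 RPKM in parental cells, 0.72 in vector control cells, 2.19 with the exon 3 guide and 0.94 with the exon 2 guide. These values rest on 6 to 17 reads.

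Citrate and malate also move through carriers and transaminases. Of 8 such genes 0 passed in limma. At an unadjusted limma p under 0.05, 1 was lower and 0 higher, against 13.8% and 5.32% of all tested genes. Acly, the cytosolic enzyme that splits citrate for lipid synthesis, had 302 RPKM in parental cells, 269.9 in vector control cells, 172 with the exon 3 guide and 149 with the exon 2 guide (log2 change -0.83, SE 0.291, limma adjusted p = 0.180). Got1, the cytosolic aspartate transaminase of the malate-aspartate shuttle, had 83.8, 81.9, 113 and 116 RPKM in the same order (0.46, adjusted p = 0.389). The knockouts lay wholly below the controls in 2 of the 8 genes, among them Acly, and wholly above in 2, among them Got1. The shares of all tested genes were 31.2% and 21.9%. Both products are cytosolic, but the 2 genes were named as the lowest and highest change of the list. Their opposite directions are therefore no result about cytosolic enzymes.

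Other sources of NADPH gave a mixed picture. Of 9 listed genes 8 were tested and 0 passed in limma, with a median log2 change of 0.01. At an unadjusted limma p under 0.05, 1 was lower and 0 higher, against 13.8% and 5.32% of all tested genes. Nnt, the mitochondrial transhydrogenase, was lowest, with 10.2 RPKM in parental cells, 20.3 in vector control cells, 4.06 with the exon 3 guide and 8.61 with the exon 2 guide (-1.15, SE 0.420, limma adjusted p = 0.191). Its controls lay far apart, and the exon 2 knockout was close to the parental line. No coding GC was available for Nnt, so its change could not be corrected for GC content and length. Me3, a mitochondrial malic enzyme, was highest, with 3.30, 2.39, 5.55 and 4.63 RPKM in the same order (0.67, adjusted p = 0.322). Me2, the other mitochondrial malic enzyme, named here after its values were seen, had 13.7, 35.4, 17.5 and 15.9 RPKM in that order (-0.39, limma adjusted p = 0.620). The groups of Me2 overlapped, and only its vector control stood high. After the correction for GC content and length its change was 0.11, so no direction of Me2 could be set beside that of Me3.

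**Figure D4:**
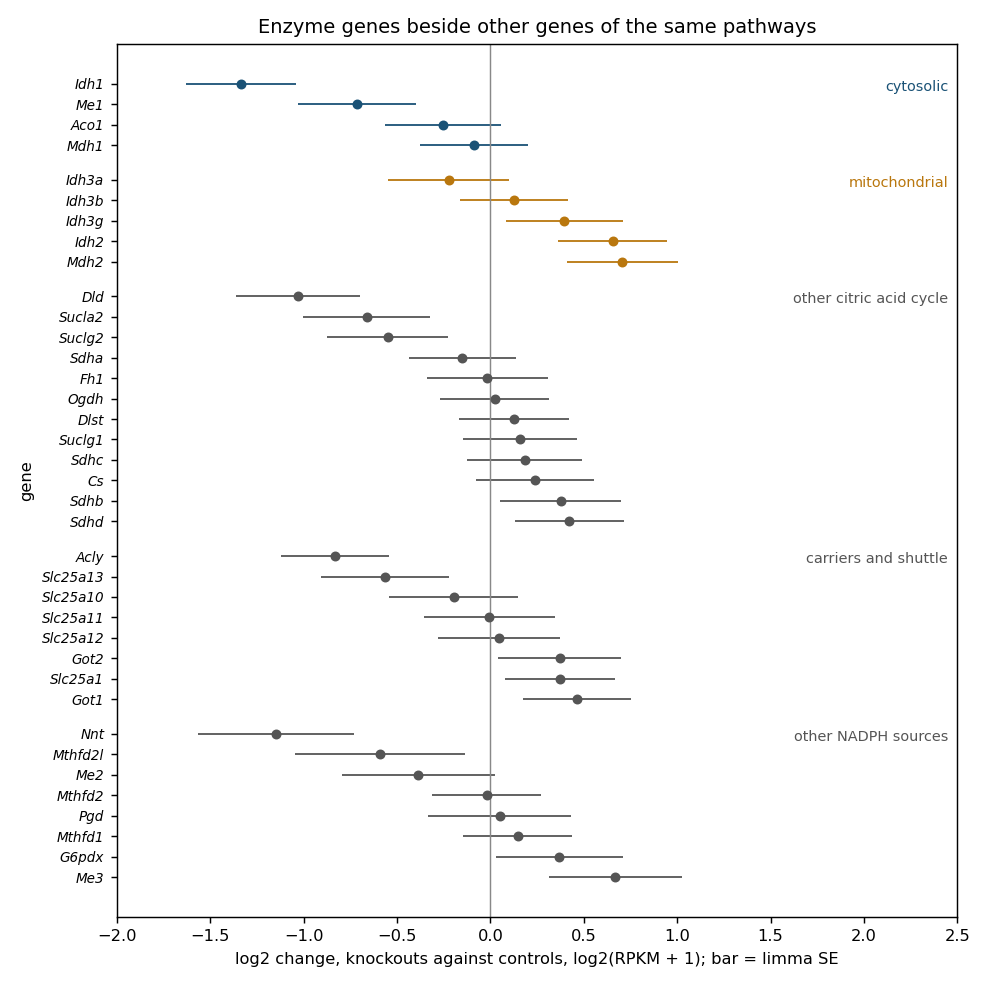
Log2 change of knockouts against controls on the log2(RPKM + 1) scale, with limma standard errors, for the 9 enzyme genes and for other genes of the citric acid cycle, of carriers and shuttle, and of NADPH supply. Idh1 at -1.33 is the lowest point shown, and Nnt and Dld, at -1.15 and -1.03, are the nearest to it.

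The genes that remove 2-hydroxyglutarate, the side product of isocitrate dehydrogenases, were at low levels. Of 3 tested 0 passed in limma. At an unadjusted limma p under 0.05, 1 was lower and 0 higher, against 13.8% and 5.32% of all tested genes. Changes ran from -0.17 for D2hgdh to -0.91 for Adhfe1. Adhfe1 had 4.32 RPKM in parental cells, 5.53 in vector control cells, 2.70 with the exon 3 guide and 1.65 with the exon 2 guide. Around Aco1 in its role as an iron sensor, 5 of 6 genes were tested, 0 passed in limma, and at an unadjusted p under 0.05, 2 were lower and 2 higher, against 13.8% and 5.32% of all tested genes. Ireb2, which encodes iron regulatory protein 2, had 19.9, 19.0, 5.29 and 8.49 RPKM in the same order and was 2-fold lower in all 4 pairs (log2 change -1.40, SE 0.337, limma adjusted p = 0.105), whereas Aco1 was not. Fth1, the ferritin heavy chain, was highest, with 4764, 6185, 19957 and 10283 RPKM (1.40, adjusted p = 0.130), although reads of ferritin genes may be shared with processed copies. Coding GC was 42.3% for Ireb2, below that of each of the 9 enzyme genes, and its change after the correction was -0.58.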

How the data were processed

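RNA-seq had been run on 4 libraries, grouped by their titles into controls (parental line, vector control) and S100a4 knockouts (exon 3, exon 2). The authors deposited 1 table of RPKM values per gene, without log scale or scaling between libraries. The submitters' processing notes name CASAVA 1.8, GSNAP and GRCm38, and the counting rule is not given in the sources used here. All 4 columns were matched to libraries, and 0 columns were left unmatched.

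Whole reads were recovered from the ratios between libraries (tolerance 0.001 reads; 100% of 15405 genes above 0), with totals of 31235456, 25396254, 23474246 and 22472024 behind the parental, vector, exon 3 and exon 2 columns. Their absolute scale rests on annotated coding lengths, which 58.7% of 10360 expressed genes matched. Counting intervals are 95%, from these reads, and cover counting error only.

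The test was limma 3.58.1 (R 4.3.3) with an intensity trend on log2(RPKM + 1), 2 knockouts against 2 controls without covariates, for genes with a mean of at least 1 RPKM, with Benjamini-Hochberg adjustment over all 10871 and a threshold of 0.05. The procedure was tested on simulated data. The simulated reads for limma held no trend with GC content and no differences between lines beyond random spread. That test therefore does not show how the calls fare under such shifts in these libraries. GC content and length were corrected per library with splines (5 degrees of freedom). Other alternatives were a pseudocount of 0.1, median ratio scaling, quantile normalization, no filter, a filter at 5 RPKM, limma with no trend, limma with a robust prior, voom on recovered reads, a 3-fold threshold and leaving out each library. The labels name a stranded total RNA kit and the methods a kit without those words, and no batch is given.

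The 9 genes, the related lists and the marker lists were chosen with earlier results of these data known. Named genes were the 9 genes in full, S100a4, of each list the genes with the highest and lowest change and those 2-fold apart in all 4 pairs, the 5 genes with a pattern most like Idh1, and the nearest other enzyme of each. Of the genes so chosen, 1 is not reported here and enters only the counts and median of its list. Pc and the sequence windows of Idh3a were not matched and are not analysed here. Tables were handled in Python 3.11.15 (pandas 2.3.3, numpy 2.4.6), intervals in scipy 1.17.1 and plots in matplotlib 3.10.9.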

Additional observations from a re-analysis of the deposited data

Results flagged for a closer look

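Idh3a, the catalytic subunit of the NAD-dependent isocitrate dehydrogenase, had its 2 knockout values on opposite sides of both controls. The exon 3 knockout (57.0 RPKM) lay well below both controls (83.7 and 88.1) and the exon 2 knockout (94.4) only slightly above them. The log2 ratio of the exon 3 to the exon 2 knockout was -0.73. The difference was not tested, as each knockout is 1 library. Such a pattern was seen in 857 of 10871 tested genes (7.88%).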

How the results depend on the processing

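The counts of calls differed widely between settings. Against 2 of all tested genes called, 1 was called with a pseudocount of 0.1 and with quantile normalization, 0 with median ratio scaling, without the filter, with voom and after the correction for GC content and length, 32 with a filter at 5 RPKM, 285 with a robust prior, and between 3 and 788 when 1 library was left out. Of the 9 enzyme genes 0 were called, 1 with a robust prior, and 0 to 1 without 1 library (Idh1, without the vector control or without the parental line). The count of genes whose groups did not overlap was 5, 6 with quantile normalization, and 7 with median ratio scaling and after the correction. Without 1 library it was 6 to 8, 8 being reached without the exon 2 knockout. A group of 1 library overlaps the other group less often by design. For these settings the share of all tested genes was not counted, so the higher counts are no result about the enzyme genes. The 1 gene past 2-fold in all 4 pairs became 0 after the correction and at 3-fold. The cytosolic median of -0.49 became -0.18 after the correction, and the mitochondrial median of 0.40 ran from 0.15 without the parental line to 0.58 without the vector control. Directions turned for Aco1 after the correction (0.015), for Idh3a after the correction (0.058) and over the libraries left out (-0.58 to 0.14, positive without the exon 3 knockout), for Idh3b with quantile normalization (-0.076), and for Mdh1 with median ratio scaling (0.0043), after the correction (0.11) and over the libraries left out (-0.19 to 0.017). The median of the other citric acid cycle genes, 0.13, was 0.22 with median ratio scaling, -0.011 with quantile normalization and -0.047 to 0.28 over the libraries left out. That of the 2-hydroxyglutarate dehydrogenases, -0.59, was -0.30 with quantile normalization and -0.67 to -0.33 over the libraries left out. The median of all tested genes moved from -0.08 to 0.04 with quantile normalization and to 0.05 after the correction. Idh1, Me1, Idh2, Idh3g and Mdh2 kept their direction under all 13 alternatives. The causes of these shifts were not tested. No paired analysis was possible, as each library is of a different line and no knockout is paired with a control. With 364 to 943 reads, Me1 had the fewest reads of the 9 genes in every library.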
